A study of Mus musculus with 12 samples.

Results

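Astrocytes are the glial cells that clear glutamate and potassium around synapses, cover blood vessels with their endfeet, and supply neurons with glutamine, lipids and secreted proteins. The baseline described here is the set of transcripts, and their amounts, in astrocytes sorted from the hippocampus of control mice. It rests on the libraries labelled Ctrl, which were chosen by that label alone and make up 6 of the 12 libraries of the series. Their donors were naive adult males homozygous for a floxed Tnfrsf1b gene, Tnfrsf1b fl/fl, which encodes the tumour necrosis factor receptor TNFR2. The other 6 libraries, labelled cKO, carry GfapcreERT2 on that background, a Cre recombinase switched on by tamoxifen under the Gfap promoter, and are not used here. All 12 libraries therefore share the floxed alleles, and the labels do not say whether the Ctrl mice received tamoxifen. Cells were sorted by flow cytometry for ACSA-2, an antigen on the astrocyte surface, so a cell was taken for that antigen and not for its RNA. The SMART-Seq V4 low-input kit made the cDNA, which was read in pairs of 125 bases on an Illumina HiSeq instrument.

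Each Ctrl library carries an A number (A1, A2 or A8) and an S number (S1 or S2), which the labels do not define. S1 and S2 of 1 A number were averaged, giving 3 units, and every error below is the standard deviation (SD) over these 3 units (n = 3). The labels do not say whether a unit is 1 mouse, several mice or 1 sort, so the SD may include technical spread. Levels are in FPKM, the fragments assigned to a gene per kilobase of its exonic length and per 1000000 assigned fragments, which allows levels of different genes to be set side by side. Shares of reads, in percent, are FPKM multiplied by length and so favour long transcripts. With the most frequent low step of FPKM times length taken as 1 fragment, depth was 8655936 to 15749508 fragments per library, so a gene of 1 kilobase with 3 fragments reads 0.190 to 0.347 FPKM. A further 20.4% to 26.8% of low values lay at multiples of 0.5 of that step. If 0.5 of the step is 1 read, depth in reads is 2 times the fragments given and 3 reads correspond to 0.5 of each limit. Such limits cover counting error only, since the reads carry no molecular identifiers. Across genes with a mean of at least 1 FPKM, S1 and S2 of 1 unit had a Pearson r of 0.995 in each of the 3 units on log2(FPKM + 1). Units A1 and A2 had 0.951, and unit A8 had 0.885 with A1 and 0.887 with A2. Genes are not independent replicates, so these values describe the libraries. Unit A8 stood apart from the other units, and for this reason many values are given unit by unit or also without it.

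The floxed gene was nearly undetected. Tnfrsf1b (ENSMUSG00000028599) read 0.0551 FPKM in library A1 S1, which corresponds to 2 fragments on the step used here, and 0 in the other 5 Ctrl libraries. At these depths 3 fragments of this gene correspond to 0.0499 to 0.0908 FPKM. Tnfrsf1a, which encodes the other receptor for tumour necrosis factor, TNFR1, read 7.58, 10.1 and 11.8 FPKM in units A1, A2 and A8. Every Tnfrsf1a value was far above every Tnfrsf1b value.

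Astrocyte markers were abundant in every library. Slc1a2 encodes the glutamate transporter GLT-1, and in the order A1 S1, A1 S2, A2 S1, A2 S2, A8 S1 and A8 S2 it read 1505, 1491, 1611, 1593, 1676 and 1652 FPKM. In the same order, Gja1 (connexin 43, the main astrocyte gap junction protein) read 246, 238, 253, 249, 298 and 289 FPKM. Aqp4 (aquaporin-4, the water channel of endfeet) read 174, 169, 230.5, 228, 224 and 220.4 FPKM. Within each unit the S1 and S2 values of these 3 genes lay close together, and all 6 libraries were far above the detection limit. Aldh1l1 (a folate enzyme used as an astrocyte marker) was lower, at 39.2, 37.8, 42.3, 40.9, 41.1 and 41.7 FPKM, and ranked 534 of 21622 genes. All 16 genes of the astrocyte list were at 10 FPKM or more and 13 at 100 or more, with a list median of 191 FPKM. Gfap, the intermediate filament gene whose promoter drives the Cre of the other genotype, read 61.4, 112 and 62.00 FPKM in A1, A2 and A8, with A2 highest.

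Markers of other cell types were present in unequal amounts. The oligodendrocyte list was the highest of them: all 12 genes were at 10 FPKM or more. Summed over the list in A1, A2 and A8, oligodendrocyte markers read 2172, 2354 and 1096 FPKM, against 5388, 5883 and 6545 FPKM for the astrocyte list; without A8 the mean sums were 2263 and 5635 FPKM. Unit A8 was lowest for all 12 oligodendrocyte genes and highest for 10 of the 16 astrocyte genes. For this and later counts of this kind, the share of all genes with A8 lowest or highest was not counted. Of the 3251 genes at 1 FPKM that differed at least 2-fold between units, A8 was lowest for 2072 and highest for 783. Ependymal markers, genes of ciliated cells lining the ventricles, summed to 342, 303 and 84.2 FPKM, with A8 lowest for all 10 genes and a mean of 243 FPKM, or 322 without A8. Their regulator Foxj1, a transcription factor for motile cilia, read 59.3, 59.5 and 11.98 FPKM in A1, A2 and A8. Endothelial markers summed to 84.2, 53.6 and 8.27 FPKM and were again lowest in A8 for all 10 genes; their mean sum was 48.7 FPKM, or 68.9 without A8. Choroid plexus markers summed to 68.7, 74.9 and 9.31 FPKM (a mean of 71.8 without A8), mural markers to 113, 116 and 69.7 FPKM, and markers of neural stem or progenitor cells to 43.9, 56.3 and 28.8 FPKM, each lowest in A8. In bulk samples, fewer cells of a type and less RNA per cell cannot be told apart.

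Markers of microglia, neurons and blood cells were low. Of 12 microglial genes 3 reached 1 FPKM and 1 reached 10, at 12.4 FPKM. Trem2 and Tmem119, both defining markers, were the only 2 of the list at 0 in all 6 libraries. The neuronal list held 6 of 13 genes at 1 FPKM, led by the granule cell factor Prox1 (12.3 ± 2.28 FPKM), and summed to 22.9 to 28.6 FPKM. Of the perivascular macrophage genes 4 of 6, and of the erythrocyte genes 4 of 5, were at 0 in every library; the latter 4 are the globin genes. Fibroblast markers summed to 7.83, 6.15 and 7.57 FPKM in A1, A2 and A8, and microglial markers to 18.5, 16.8 and 19.1 FPKM. The oligodendrocyte precursor list was not as low: 5 of 8 genes reached 1 FPKM and 3 reached 10. It summed to 142, 168 and 127 FPKM in A1, A2 and A8. This list held Olig1 (83.2 ± 10.5 FPKM) and Olig2 (30.3 ± 4.03 FPKM), which astrocytes also transcribe. Pdgfra, the defining receptor of the precursors, was at 0.804 ± 0.728 FPKM.

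**Figure D1:**
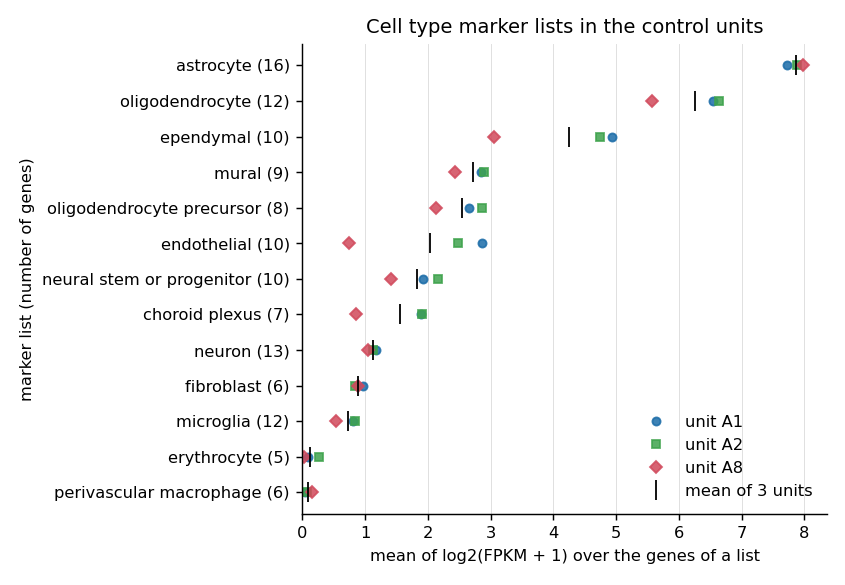
Mean of log2(FPKM + 1) over each marker list (horizontal axis) for 13 cell types (vertical axis, number of genes in parentheses); symbols are the 3 control units and the vertical tick is their mean. The astrocyte list is highest at 7.86 ± 0.13, the oligodendrocyte list second at 6.25 ± 0.59, and unit A8 lies below A1 and A2 for the oligodendrocyte, ependymal and endothelial lists.

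The number of genes detected in the control sorts was read from the 21622 protein-coding genes of at least 300 bases. Markers of other cell types are included, such as all 12 oligodendrocyte genes, so these are not counts for astrocytes alone. A mean of 1 FPKM was reached by 11868 genes (54.9%), 10 FPKM by 3486, 100 FPKM by 137 and 1000 FPKM by 12. The count at 1 FPKM was 11961 in unit A1, 11900 in A2 and 11176 in A8, and 10304 genes were at 1 FPKM in every library. At the other end, 5501 genes were at 0 in all 6 libraries.

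The top of the ranking was mitochondrial. Of the 12 genes above 1000 FPKM, 7 are encoded by the mitochondrial genome, led by mt-Co1, a subunit of cytochrome c oxidase, at 11493, 11518 and 12834 FPKM in A1, A2 and A8. Next came mt-Cytb of complex III at 6769 ± 1206 FPKM, then mt-Nd6 and mt-Nd2 of complex I at 6457 ± 699 and 6098 ± 1599 FPKM; the neighbours mt-Cytb, mt-Nd6 and mt-Nd2 differed by less than the larger of their SDs. The value of mt-Nd6 is uncertain, because the gene lies on the opposite strand to its abundant neighbours, overlaps mt-Nd5, and the kit does not mark strand. All 7 read higher in A8 than in A1 and A2.

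Of the other 4 ranked mitochondrial genes, mt-Nd3 of complex I was highest at 565, 577 and 893 FPKM in A1, A2 and A8, place 19 of the ranking. On the same scale mt-Co2 read 28.9 ± 2.05 FPKM, mt-Co3 23.8 ± 1.44 FPKM and mt-Atp6 57.5 ± 5.82 FPKM, far below mt-Co1, although mt-Co2 and mt-Co3 encode subunits of the same enzyme. A run of 7 unprocessed pseudogenes on chromosome 1, near-identical to this stretch of the mitochondrial genome, read 15.2 to 63.4 FPKM. Reads that match both places cannot be assigned to either, so the levels of mt-Co2, mt-Co3 and mt-Atp6 are uncertain. By order and length the run also reaches mt-Nd3 (348 bases, beside a pseudogene of 345) and parts of mt-Co1 and mt-Nd4. The levels of these 3 genes may be affected too, which was not tested.

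Among nuclear genes, the first places went to secreted proteins and glutamate handling. Sparcl1, which encodes the matricellular protein hevin, was first at 1934, 1967 and 2226 FPKM in A1, A2 and A8 (2042 ± 159.6 FPKM, SD, n = 3). Apoe, the main lipid carrier of the brain, read 1484, 1544 and 1946 FPKM (1658 ± 251). Slc1a2 read 1498, 1602 and 1664 FPKM (1588 ± 83.7), and Cst3, the protease inhibitor cystatin C, 1302, 1419 and 1782 FPKM (1501 ± 250.3). Sparcl1 was above Apoe in all 3 units by more than the larger SD, whereas Apoe and Slc1a2, and Slc1a2 and Cst3, differed by less than the larger SD. Glul, glutamine synthetase, followed at 943, 1037 and 1065 FPKM (1015 ± 63.8), below Cst3 in all 3 units. In the deposited table, whose coordinates do not match GRCm38, Sparcl1 (ENSMUSG00000029309) spans chromosome 5 from 104226977 to 104261599 on the minus strand, and Slc1a2 (ENSMUSG00000005089) chromosome 2 from 102489004 to 102621129 on the plus strand.

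Places 6 to 20 among nuclear genes formed a gradual series in which every neighbouring pair differed by less than the larger SD. Among them, Cpe, a carboxypeptidase that trims peptides in secretory granules, read 930.0 ± 118 FPKM; Plpp3, a phosphatase of lipid signals, 778 ± 172 FPKM (681, 677 and 976 in A1, A2 and A8); Scd2, a fatty acid desaturase, 775 ± 107 FPKM; and Clu, the lipid-binding chaperone clusterin, 697 ± 49.5 FPKM. Atp1b2, the glial beta subunit of the sodium pump, read 665 ± 97.4 FPKM. The zinc-binding metallothionein gene Mt1 read 655 ± 123 FPKM and the glycolytic aldolase gene Aldoc 556 ± 133 FPKM. After them came the membrane glycoprotein gene Gpm6a (539.8 ± 83.1 FPKM), creatine kinase B, Ckb (485 ± 58.6 FPKM), and the granule protein gene Scg3 (479.8 ± 28.2 FPKM). The orphan receptor gene Gpr37l1 (478 ± 88.6 FPKM), beta-actin, Actb (473 ± 86.3 FPKM), and Ndrg2, known from astrocytes (457 ± 45.6 FPKM) were also in these places. In all, 22 of the first 100 nuclear genes overlap an exon of another gene, so part of their reads cannot be assigned with certainty.

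**Figure D2:**
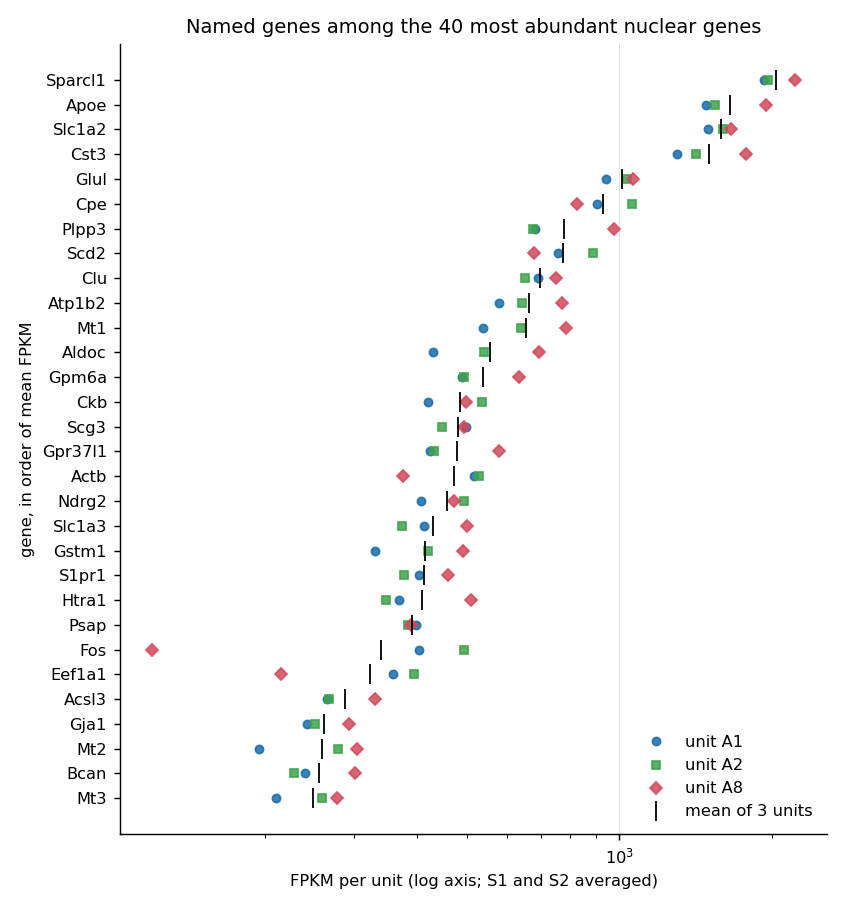
Levels of the genes named here among the 40 most abundant nuclear protein-coding genes (vertical axis, in order of the mean) as FPKM on a log axis; symbols are the 3 control units, each the average of S1 and S2, and the vertical tick is their mean. Sparcl1 is first at 2042 FPKM, Slc1a2 varies little between units, and Fos shows a low A8 value.

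Few genes held a large part of the reads. The 10 most abundant protein-coding genes took 8.27 ± 0.954% of all assigned reads, the first 100 took 18.6 ± 1.31%, and the first 1000 took 40.5 ± 1.17%. For the first 100 the share was 17.4% in A1, 18.3% in A2 and 19.98% in A8. Slc1a2, with an exonic length of 13133 bases, alone took 2.09%, more than mt-Co1 at 1.85%. By biotype, nuclear protein-coding genes took 78.3 ± 2.24%, mitochondrial protein-coding genes 5.26 ± 0.766%, and nuclear ribosomal RNA 5.77 ± 0.510%. Long noncoding RNA took 5.10 ± 0.783%, mitochondrial ribosomal RNA 3.13 ± 0.147%, and pseudogenes 0.439 ± 0.00621%.

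By function, 25 classes built from gene symbols and lists covered 2231 ranked genes and 26.3% of all reads. After mitochondrial mRNAs at 5.26 ± 0.766%, solute carriers took 4.14 ± 0.213%, and secreted and matrix proteins 3.58 ± 0.220%. Listed metabolic enzymes took 2.21 ± 0.0988% and ATP-driven pumps 1.22 ± 0.115%. Receptors coupled to G proteins took 1.02 ± 0.0709% and ion channels 0.865 ± 0.0437%. In each of the 3 units the solute carriers took more reads than the pumps, the G protein coupled receptors or the ion channels. Cytosolic ribosomal protein genes took 0.380 ± 0.0765%, and 45 of the 86 members had fractional fragment numbers. Many of these genes have near-identical copies, so their levels are uncertain; the highest was Rplp1 at 136, 185 and 83.8 FPKM in A1, A2 and A8.

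**Figure D3:**
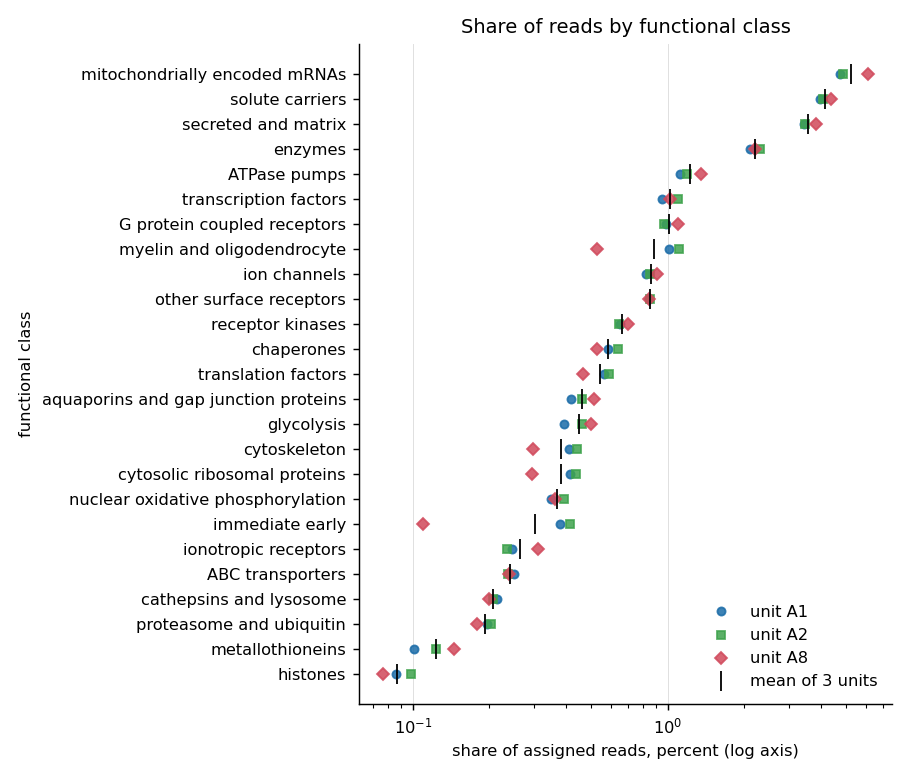
Share of all assigned reads, in percent on a log axis, for 25 functional classes (vertical axis); symbols are the 3 control units and the vertical tick is their mean. Solute carriers and secreted proteins follow the mitochondrial mRNAs with little spread, and A8 is low for the immediate early (0.109% against 0.380% and 0.413%) and myelin classes.

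Transporters of glutamate and GABA led the solute carriers, of which 212 of 389 genes (54.5%) reached 1 FPKM and 61 reached 10. Slc1a2 made up 50.3% of the reads of the class. Slc1a3, the glutamate transporter GLAST, read 413, 374 and 500.1 FPKM in A1, A2 and A8, so the Slc1a2 level was 3.75 ± 0.491 times the Slc1a3 level within a unit. Slc6a11, the GABA transporter GAT-3, read 142, 183 and 231 FPKM, with A1 lowest and A8 highest.

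The remaining leading carriers serve ions, metals and metabolites. Slc4a4, a sodium bicarbonate cotransporter, read 142, 162 and 217 FPKM in A1, A2 and A8, and Slc39a12, a zinc importer, 137 ± 13.4 FPKM. Slc27a1, a fatty acid transport protein, read 107, 100.5 and 156 FPKM, and Slc7a10, a small neutral amino acid exchanger, 92.7, 90.3 and 145 FPKM, so that A8 stood above A1 and A2 for both. In mitochondria the glutamate carrier Slc25a18 led at 106, 126 and 132 FPKM, above the ATP/ADP exchangers Slc25a5 (89.2 ± 6.70 FPKM) and Slc25a4 (65.4 ± 1.90 FPKM). The second mitochondrial glutamate carrier, Slc25a22, was low at 0.943, 1.08 and 3.79 FPKM in A1, A2 and A8. The lactate transporter gene Slc16a1 (MCT1) read 36.3, 31.1 and 22.2 FPKM in the same order, and Slc16a3 (MCT4) 0.0340, 0.625 and 0.883 FPKM, below 1 FPKM in every unit and near the detection limit in A1. A8 was the highest unit for Slc6a11, Slc4a4, Slc39a12, Slc27a1 and Slc7a10, and the lowest for Slc16a1. Of these, Slc39a12, Slc27a1, Slc7a10 and Slc16a1 were added after values were seen, so they do not represent the carriers as a class.

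Pumps restore the ion gradients spent by uptake. Atp1b2 read 581, 642 and 771 FPKM in A1, A2 and A8, lowest in A1 and highest in A8. Of 57 ATP-driven pump genes 41 reached 1 FPKM; the endoplasmic reticulum calcium pump gene Atp2a2 led the calcium pumps at 99.6, 95.02 and 101 FPKM, with little spread. The lysosomal proton pump had 19 of 26 genes at 1 FPKM, the highest being Atp6ap1 at 42.5 ± 1.88 FPKM. Among 50 ABC transporters 30 reached 1 FPKM, led by Abca2 (62.6 ± 13.9 FPKM), abundant in myelinating cells, and the cholesterol exporter Abca1 (52.2 ± 6.37 FPKM).

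Potassium channels were few and unequal. Of 94 genes in the group 33 reached 1 FPKM, and 1 exceeded 100. Kcnj10, which encodes the inward rectifier Kir4.1 that carries potassium into astrocytes, read 138, 177 and 179 FPKM in A1, A2 and A8. Its partner Kcnj16 (Kir5.1) read 44.3, 53.3 and 72.1 FPKM and the two-pore-domain channel gene Kcnk1 87.4, 66.4 and 92.7 FPKM. Kcnj10 was 2.98 ± 0.437 times Kcnj16, and above it in all 3 units. Chloride and volume-related channels were led by Ttyh1 at 181, 196 and 232 FPKM, the highest level of any gene in the channel class. Sodium channels were low: none of 20 genes reached 10 FPKM and the highest, Scn7a, read 4.91 ± 2.01 FPKM. For release of stored calcium, Itpr2, the inositol trisphosphate receptor typical of astrocytes, read 16.8 ± 3.69 FPKM, 6.35 ± 1.71 times Itpr1.

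Gap junction genes were led by 2 connexins. Gja1 read 242, 251 and 293 FPKM in A1, A2 and A8, and Gjb6 (connexin 30) 132, 132 and 206 FPKM, with Gja1 above Gjb6 in every unit at 1.72 ± 0.260 times its level. Gjc3 (37.6, 35.4 and 21.7 FPKM) and Gjb1 (11.9, 10.99 and 7.44 FPKM), which belong to oligodendrocytes, were lowest in A8, as the oligodendrocyte list was; its part in these values was not tested. None of the 3 pannexin genes reached 1 FPKM. Among 11 aquaporins, Aqp4 at 208 ± 31.6 FPKM stood far above Aqp9 (1.97 ± 0.341 FPKM).

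**Figure D4:**
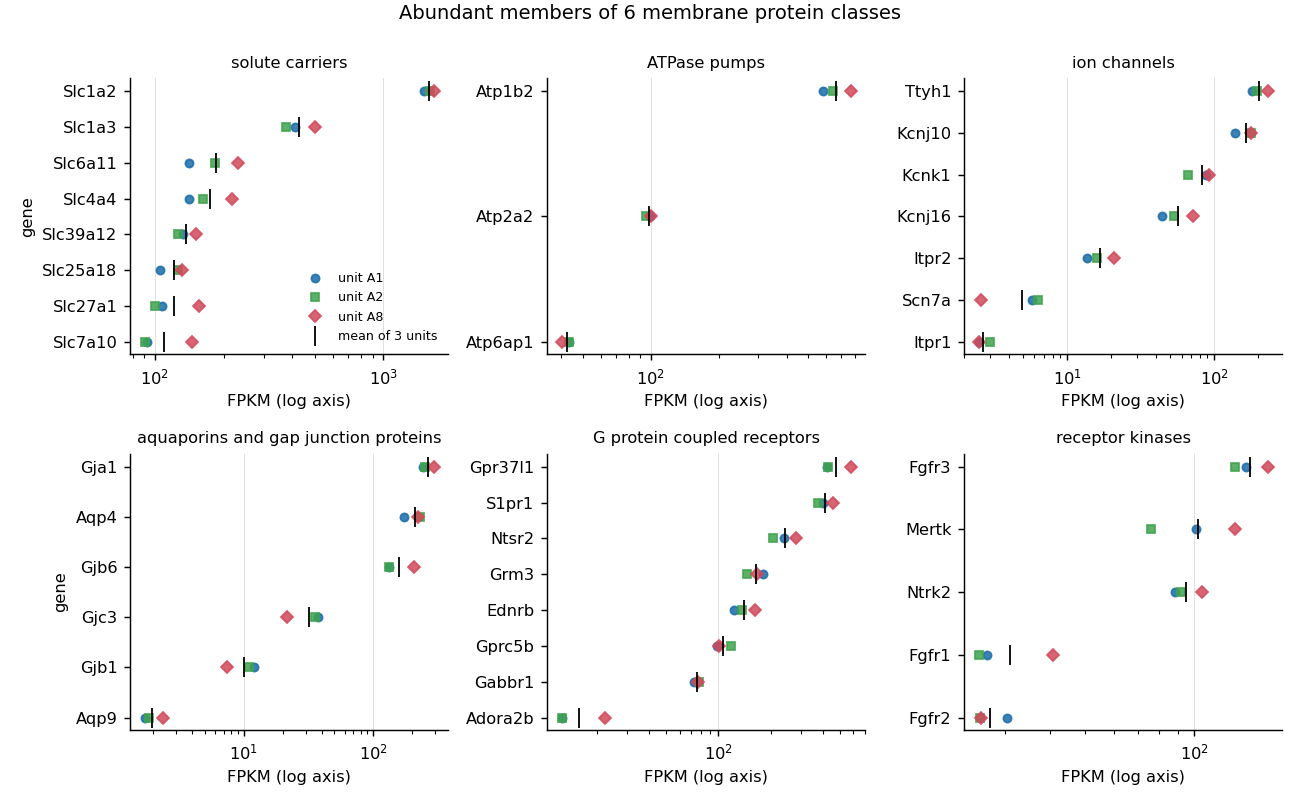
The genes named here of 6 classes of membrane proteins, at most 8 a class, FPKM on log axes that differ between panels; symbols are the 3 control units and the vertical tick is their mean. Slc1a2 exceeds all other carriers, Atp1b2 exceeds the other pump genes shown, and Gjc3 shows a low A8 value.

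Of 293 genes for receptors coupled to G proteins 102 reached 1 FPKM and 6 reached 100, while 82 were at 0 in every library. Gpr37l1, an orphan receptor of glia, was highest at 424, 430.4 and 580.4 FPKM in A1, A2 and A8. S1pr1, a receptor for sphingosine 1-phosphate, read 403, 377 and 459 FPKM, and Ntsr2, a neurotensin receptor, 238, 207 and 279.9 FPKM. Ednrb, the endothelin B receptor, read 123, 137 and 162 FPKM and the orphan Gprc5b 99.00, 118 and 101 FPKM. For glutamate, Grm3 (the metabotropic receptor mGluR3) read 180.4, 146 and 168 FPKM and Grm5 (mGluR5) 1.19, 1.29 and 1.40 FPKM, a ratio of 128 ± 20.7. For GABA, Gabbr1 read 75.6 ± 2.68 FPKM and its obligate partner Gabbr2 15.8 ± 2.01 FPKM, lower in all 3 units. Receptors for noradrenaline and other amines were low, with 8 of 50 genes at 1 FPKM, none at 10, and Adrb1 first at 6.65, 5.73 and 11.2 FPKM. Purine receptors were led by the adenosine receptor genes Adora2b (15.9 ± 5.61 FPKM) and Adora1 (12.1 ± 3.18 FPKM).

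Ligand-gated channels were present at moderate levels. Of 68 genes 25 reached 1 FPKM and 7 reached 10. The NMDA receptor subunit gene Grin2c was highest at 53.7, 47.4 and 57.9 FPKM in A1, A2 and A8, followed by the GABA-A subunit Gabrb1 (38.7, 34.2 and 54.7 FPKM) and the AMPA subunit Gria2 (40.9, 32.2 and 52.7 FPKM). Glrb, a glycine receptor subunit, read 33.9 ± 4.10 FPKM and Gabrg1, a GABA-A subunit, 27.97 ± 2.69 FPKM. Grin2c was above Gabrb1 and Gria2 in every unit, whereas the order of Gabrb1 and Gria2 differed between units.

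Growth factor receptors were led by Fgfr3 (139, 129.8 and 159.8 FPKM in A1, A2 and A8), Mertk (101, 75.9 and 129.7 FPKM), a receptor for engulfment, and the neurotrophin receptor gene Ntrk2 (88.6, 91.8 and 105 FPKM). Fgfr3 was above Fgfr1 and Fgfr2 in every unit, at 4.74 ± 0.707 and 5.27 ± 0.846 times their levels. The FPKM of Ntrk2 sums its isoforms, with and without the kinase. Of other surface receptors, the lipoprotein receptor gene Lrp1 read 77.4 ± 6.21 FPKM, the ciliary neurotrophic factor receptor gene Cntfr 62.7 ± 5.56 FPKM, the integrin gene Itgb8 60.2 ± 6.25 FPKM, the semaphorin receptor gene Plxnb1 47.7 ± 4.09 FPKM and the sorting receptor gene Sort1 47.4 ± 8.26 FPKM. This class had the steadiest share of reads, 0.845%, 0.855% and 0.850% in A1, A2 and A8.

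Secreted and matrix proteins held 105 of 159 genes at 1 FPKM and 17 at 100 or more. Beside Sparcl1, Apoe, Cst3, Cpe and Clu, the serine protease gene Htra1 read 368, 346 and 509 FPKM in A1, A2 and A8, and Psap, the precursor of lysosomal saposins, 397, 384 and 388 FPKM. Apoe was 2.37 ± 0.225 times Clu, and Sparcl1 22.3 ± 6.41 times its relative Sparc, each in all 3 units. In the extracellular matrix, the proteoglycan gene Bcan (brevican) read 256 ± 38.9 FPKM, the growth factor gene Ptn (pleiotrophin) 234 ± 1.27 FPKM, and its receptor Ptprz1 178 ± 20.5 FPKM. Bcan was 2.89 ± 0.683 times Ncan (neurocan), and higher in all 3 units. Mfge8, a bridge between dying cells and phagocytes, read 211, 192 and 283 FPKM in A1, A2 and A8, with A8 highest. Among cytokines and chemokines 8 of 15 genes reached 1 FPKM, led by Cxcl14 (166, 150.1 and 189.9 FPKM), Il18 (88.97, 72.6 and 123 FPKM) and Il33 (101, 97.2 and 77.8 FPKM). Tnf, the ligand of the floxed receptor, was at 0 in all 6 libraries, and Il6 read 0.0846 ± 0.0738 FPKM. Of trophic factors, Vegfa read 82.7 ± 7.89 FPKM, Dkk3 47.7 ± 1.05 FPKM and Fgf1 23.1 ± 1.85 FPKM, whereas Bdnf read 0.279 ± 0.0549 FPKM.

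Among listed enzymes Glul had the highest level, and the glutamate dehydrogenase gene Glud1 read 204 ± 19.6 FPKM. For lipids, Scd2 was followed by the acyl-CoA synthetase gene Acsl3 (288 ± 36.6 FPKM) and the desaturase gene Fads2 (181 ± 25.1 FPKM), and 13 of 15 cholesterol synthesis genes were at 10 FPKM or more. In glycolysis 14 of 16 listed genes were at 10 FPKM or more. Aldoc was 5.40 ± 1.28 times Aldoa, and Ldhb 7.21 ± 0.978 times Ldha. Both forms of glycogen phosphorylase were present, Pygb at 123 ± 14.1 FPKM and Pygm at 43.9 ± 15.5 FPKM. The serine synthesis genes Psat1 (63.3 ± 5.07 FPKM) and Phgdh (53.6 ± 4.74 FPKM) and the glutathione transferase gene Gstm1 (329.9, 419 and 492 FPKM) completed the leading enzymes.

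Metallothioneins, small proteins that bind zinc and copper, were among the most abundant short transcripts. Mt1 read 539.5, 641 and 785 FPKM in A1, A2 and A8, Mt2 195, 279 and 303 FPKM and Mt3 211, 259 and 278 FPKM; Mt4, a gene of epithelia, was at 0 in every library. All 3 transcribed members had the same order of units, A1 lowest and A8 highest, and Mt1 was 2.55 ± 0.236 times Mt2 and 2.62 ± 0.183 times Mt3. Mt1 and Mt2 are known as targets of the metal-responsive factor MTF1, which binds metal response elements. The 250 bases before the annotated start of each gene (RefSeq, GRCm38.p6, all on the plus strand of chromosome 8) are shown because these genes had the same order of units. Capitals mark matches to the element's core, TGCACNC or TGCGCNC, on either strand.
Mt1, chr8:94178839-94179088: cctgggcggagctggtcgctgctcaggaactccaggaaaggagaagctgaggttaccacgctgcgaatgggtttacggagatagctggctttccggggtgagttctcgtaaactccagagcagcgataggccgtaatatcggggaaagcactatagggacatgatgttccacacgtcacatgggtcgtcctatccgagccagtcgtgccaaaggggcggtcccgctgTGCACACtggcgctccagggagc
Mt2, chr8:94172368-94172617: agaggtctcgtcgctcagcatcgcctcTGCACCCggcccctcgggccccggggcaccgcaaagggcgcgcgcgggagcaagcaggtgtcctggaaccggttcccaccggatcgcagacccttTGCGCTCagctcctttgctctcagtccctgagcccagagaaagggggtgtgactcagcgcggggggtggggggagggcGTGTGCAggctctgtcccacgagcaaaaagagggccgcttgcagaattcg
Mt3, chr8:94152357-94152606: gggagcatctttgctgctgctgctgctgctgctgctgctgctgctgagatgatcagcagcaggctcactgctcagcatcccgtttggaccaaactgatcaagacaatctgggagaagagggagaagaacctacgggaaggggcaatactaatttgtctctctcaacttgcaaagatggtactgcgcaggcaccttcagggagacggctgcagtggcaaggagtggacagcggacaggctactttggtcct
The windows hold 1 match in Mt1, 3 in Mt2 and 0 in Mt3. Matches outside them, as after the annotated start, were not searched, so these are not counts for a whole promoter. Of 32851 RefSeq promoter windows of the same length, 21.4% hold at least 1 match and 1.26% at least 3. Among windows of genes at 1 FPKM these shares are 29.9% and 2.10%, and among those of the 100 most abundant nuclear genes 37.6% and 4.95%. A match describes letters only, and its absence says nothing about a factor outside the window.

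Genes of general cell function were led by a few abundant members. Eef1a1, a translation elongation factor, read 358, 393 and 215 FPKM in A1, A2 and A8, and Hspa8, a constitutive chaperone, 127, 145 and 139.7 FPKM. Lamp1, a lysosomal membrane protein, read 161 ± 5.87 FPKM, and the polyubiquitin gene Ubb 172 ± 23.2 FPKM. Of 95 nuclear genes of oxidative phosphorylation 90 reached 1 FPKM and none reached 100, the highest being Ndufc2 of complex I (93.4 ± 29.96 FPKM) and Atp5a1 of ATP synthase (90.2 ± 17.8 FPKM), whereas the mitochondrially encoded mt-Co1 and mt-Cytb were above 1000 FPKM. In the actin and tubulin list 4 of 13 genes at 10 FPKM differed at least 2-fold between units, with A8 lowest in each. Over all 3486 genes at this level 337 did, with A8 lowest for 276. Vim (vimentin) was 0.595 ± 0.266 times Gfap. Fabp7, the fatty acid binding protein of astrocytes, read 35.02, 47.2 and 44.3 FPKM and its relative Fabp5 28.7, 30.1 and 21.3 FPKM, with Fabp7 higher in all 3 units.

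Transcription factors of the glial lineage were well represented: each of 16 listed glial fate factors was at 10 FPKM or more. Sox2 read 109.9, 150.1 and 152 FPKM in A1, A2 and A8 and Sox9 123, 142 and 141 FPKM, with a Sox9 to Sox2 ratio of 0.999 ± 0.105, and Sox9 higher in 1 of 3 units. Nfia read 52.7 ± 4.32 FPKM and Nfib 31.5 ± 3.997 FPKM, with Nfia higher in all 3 units. Hes5, a Notch target, read 26.5 ± 10.6 FPKM and its relative Hes1 22.4 ± 0.792 FPKM. The Id factors, which block helix-loop-helix proteins, were led by Id2 (119.9 ± 23.1 FPKM) and Id4 (115 ± 12.1 FPKM). The telencephalic identity factors Lhx2 (35.7 ± 3.03 FPKM) and Emx2 (23.1 ± 4.24 FPKM) were among the 3 of 9 listed patterning factors at 10 FPKM or more. Of nuclear receptors, the clock repressor gene Nr1d1 was highest at 69.8, 88.6 and 102 FPKM. Epas1, which responds to low oxygen, read 92.05 ± 10.6 FPKM and the lipid regulator Srebf1 68.1 ± 3.25 FPKM.

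Immediate early genes, which rise within minutes of stimulation and also during tissue dissociation, had the largest median spread of the 25 classes. Fos read 403, 494 and 119.6 FPKM in A1, A2 and A8, so that A8 was well below both others. Egr1 read 113, 160.1 and 24.7 FPKM and Jun 126, 145 and 63.02 FPKM in the same order. Junb read 72.8, 66.96 and 19.1 FPKM and Dusp1 92.2, 84.5 and 29.6 FPKM. Unit A8 was lowest for 20 of 21 listed genes, Ier5 (7.29, 4.27 and 5.59 FPKM) being the exception, and the list summed to 1267, 1379.7 and 376 FPKM, with a mean of 1007 FPKM, or 1323 without A8. Oligodendrocyte, ependymal and endothelial lists were also lowest in A8; their part in these values was not tested. The 250 bases before the annotated start of Fos (RefSeq, GRCm38.p6, plus strand of chromosome 12) are shown because this gene led the list. Capitals mark TGACGT, the stem of the cAMP response element, and TATAAA, each searched on both strands.
Fos, chr12:85473640-85473889: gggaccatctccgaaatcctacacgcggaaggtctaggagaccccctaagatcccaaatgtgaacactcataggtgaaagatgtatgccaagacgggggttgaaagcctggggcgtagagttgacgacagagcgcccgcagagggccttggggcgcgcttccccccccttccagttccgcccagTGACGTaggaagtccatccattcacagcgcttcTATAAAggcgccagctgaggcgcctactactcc
TGACGT occurs in 6.47% of all windows of this length and TATAAA in 12.4%. Among windows of genes at 1 FPKM the shares are 9.74% and 6.47%, and among those of the 100 most abundant nuclear genes 8.91% and 14.9%.

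Spread between units was several times the spread within them. Over the 11868 genes with a mean of at least 1 FPKM, the median SD of log2(FPKM + 1) between units was 0.27, against 0.07 between S1 and S2 of 1 unit; without A8 the median between units was 0.16. Over the 3486 genes with a mean of at least 10 FPKM it was 0.21, and the median coefficient of variation was 15.1%. Among those 3486 genes, 337 differed at least 2-fold between the highest and the lowest unit, and A8 was the lowest for 276 of them. Between A1 and A2 alone 27 genes differed 2-fold, against 243 between A1 and A8 and 254 between A2 and A8.

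The steadiest genes among those at 10 FPKM or more were of many kinds. Sh3pxd2b, a scaffold of invasive membrane protrusions, read 13.1 FPKM in each unit. Jak1, a kinase of cytokine receptors, read 23.5, 23.4 and 23.5 FPKM in A1, A2 and A8, and Cand1, which regulates ubiquitin ligases, 16.5, 16.6 and 16.6 FPKM. Ptn was the only gene above 100 FPKM among the 10 steadiest, at 236, 234 and 233 FPKM. The others were Mtch2, Fnip1, Fbxw11, Hectd4, Gprasp1 and Sar1a. By class, glycolysis genes had the smallest median log2 SD at 0.15, followed by lysosomal genes, ABC transporters and transcription factors (0.18 each), beside 0.21 for all genes at this level. None of the 16 astrocyte markers differed 2-fold between units.

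The least steady genes were low in A8. Enkur, a sperm and cilium protein gene, read 34.1, 32.2 and 0.404 FPKM in A1, A2 and A8, and the cilium genes Mlf1 and Drc7 read 19.3, 12.6 and 0.193 and 21.7, 18.4 and 1.67 FPKM. Ttr, the transthyretin gene of choroid plexus, read 58.4, 64.5 and 5.65 FPKM. Socs3, a feedback inhibitor of cytokine signalling, read 33.4, 22.4 and 1.79 FPKM and Klf4 24.5, 16.4 and 1.67 FPKM. The histone genes H3c11 (18.2, 21.8 and 0 FPKM) and H3c1 (9.23, 24.9 and 0 FPKM) were at 0 in A8, and Ndnf (19.2, 11.6 and 1.16 FPKM) and Rpl9-ps6 (19.1, 14.6 and 1.40 FPKM) completed the 10. Histone H3 genes and ribosomal protein copies are near-identical to one another, so these values are uncertain. By list, 9 of 9 ependymal genes, 14 of 16 immediate early genes and 8 of 12 oligodendrocyte genes differed 2-fold, always with A8 lowest. Over all 3486 genes at this level 337 did, with A8 lowest for 276. The median log2 SD of immediate early genes was 1.08 and that of oligodendrocyte genes 0.63.

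**Figure D5:**
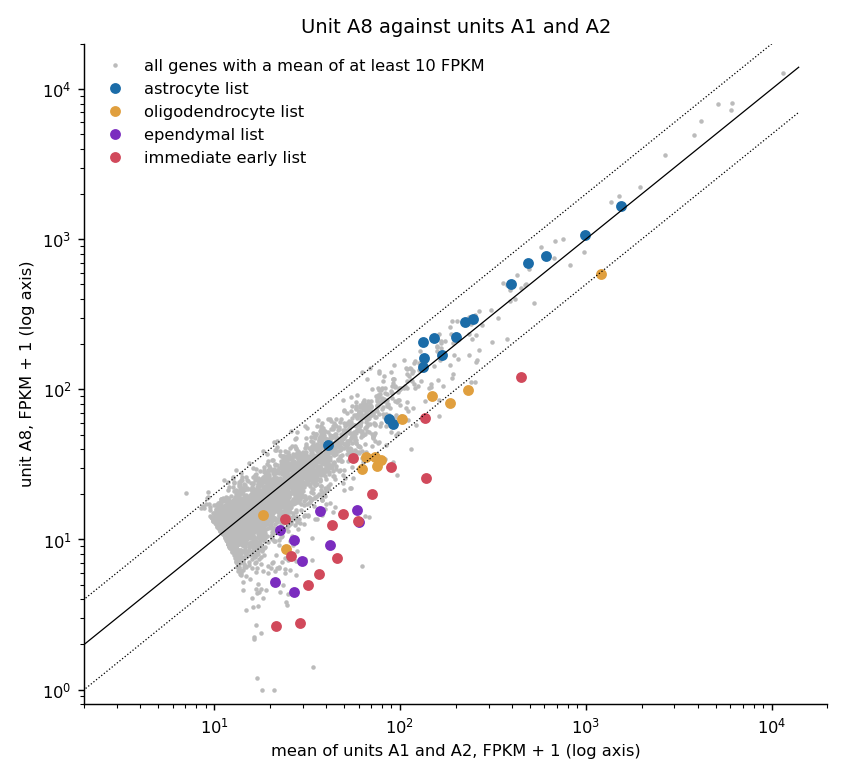
Level in unit A8 (vertical axis) against the mean of units A1 and A2 (horizontal axis), both as FPKM + 1 on log axes, for the 3486 genes with a mean of at least 10 FPKM; the solid line is equality, the dotted lines are 2-fold, and 4 marker lists are coloured. All astrocyte markers lie between the dotted lines, whereas most ependymal, immediate early and oligodendrocyte genes lie below the lower one.

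The most abundant genes had shorter transcripts than the rest. The 100 most abundant nuclear genes had a median exonic length of 3008 bases, against 4545 for the 11857 nuclear genes at 1 FPKM; FPKM divides by this length, so the scale itself bears on the difference. By class, 17 of the 100 were secreted or matrix proteins, 7 listed enzymes, 6 solute carriers and 5 receptors coupled to G proteins. RefSeq promoters were matched for 78 of the 100. TATAAA was found in 14.9% of their 101 windows, in 6.47% of those of genes at 1 FPKM and in 12.4% of all windows.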

How the data were processed

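Sorted astrocyte RNA was sequenced in 12 libraries, of which the 6 labelled Ctrl were used and the 6 labelled cKO were not. The deposited values are FPKM calculated by the authors for 56941 genes, and the deposited Length column, another kind of value, gives exonic bases. FPKM times kilobases summed to 1000000 in each library. Per the submitters' processing notes, FastQC, STAR, featureCounts and DESeq2 were used with the builds mm10 and GRCm38; versions were not given. Only 2.87% of 52000 matched identifiers had the GENCODE M21 (GRCm38) start and end, so positions are the table's own, of a build not given in the sources used here. Fragments were whole for 58.1% to 68.5% of low values (tolerance 0.02) and within the same tolerance of 0.5 more for 20.4% to 26.8% of them; how reads were divided is not given in the sources used here.

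S1 and S2 were averaged within A1, A2 and A8. Protein-coding genes of at least 300 bases were ranked by mean FPKM; spread is the SD of log2(FPKM + 1). No genotype comparison and no test was made. Members, lists and classes were chosen with earlier results of these data known. Named are the first 30 ranks, the first 5 of each class and 3 of each subclass, list members, and the 10 largest and 10 smallest spreads at 10 FPKM or more; Fgfr1, Fgfr2, Grm5, Itpr1, Slc16a1, Slc16a3, Slc25a22, Slc27a1, Slc39a12, Slc7a10, mt-Atp6, mt-Co2 and mt-Co3 were added after values were seen, and some genes that the rule names are not reported here. Calculations used Python 3.11.15 with numpy 2.4.6, pandas 2.3.3 and scipy 1.17.1, checked on simulated data. Alternatives were each unit left out, S1 or S2 alone, other thresholds, lengths, scales and denominators.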

Additional observations from a re-analysis of the deposited data

How the results depend on the processing

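Of 310 alternative values 257 stayed within the limit set for their kind. The limit was the SD between units for shares and sums, and 1.5 times the reported value for counts. For the median spread it was a narrower range around the reported value. Of the 310, 156 left out 1 unit. Leaving out 1 of 3 units cannot move a mean over fixed genes by more than the SD between those units. Such values are therefore no check of the shares and list sums. Using S1 or S2 alone changed no share by more than the SD between units. Each alternative ranking shared 28 to 30 of its first 30 genes with the one reported. Genes at 1 FPKM numbered 10304 (every library) to 13440 (rescaled to TPM). Within nuclear protein-coding reads, the first 10 and 1000 nuclear genes took 7.25% and 45.2%, solute carriers 5.30%, secreted proteins 4.58%, G protein coupled receptors 1.30% and ion channels 1.11%. As a share of summed FPKM, which removes transcript length, mitochondrial mRNAs took 22.3%, secreted proteins 5.97%, solute carriers 2.58%, G protein coupled receptors 1.24% and ion channels 0.709%, so secreted proteins then exceeded solute carriers. The median spread between units was 0.317 with a pseudocount of 0.1, 0.177 with no minimum level and 0.207 at 10 FPKM or more. With 1 unit left out it ran from 0.159 without A8 to 0.252 without A1, and fewer units alone tend to lower it. The number of genes differing 2-fold, an alternative chosen after seeing the data, was 27 without A8 and 243 to 254 without another unit; fewer units alone lower such counts. Depth limits values below about 0.347 FPKM for a 1-kilobase gene. No paired analysis was possible because no groups were compared.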

Other observations

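Long noncoding genes were outside the ranking. Of 11165 such genes of at least 300 bases, 2198 reached 1 FPKM, 171 reached 10 and 3 reached 100. Malat1, a nuclear noncoding RNA, read 4020.4, 3447 and 5229 FPKM in units A1, A2 and A8 and took 2.96% of all assigned reads, more than Slc1a2. Gm13872 was next at 191, 193 and 224 FPKM; it lies within Slc1a2 on the opposite strand and overlaps an exon of it, and reads of such partners cannot be told apart in these libraries. Of the 15 most abundant long noncoding genes, 9 overlap the span of a ranked protein-coding gene. Cdr1, annotated as noncoding in the deposited table, read 129.8, 97.1 and 34.2 FPKM, and Gm3764, which holds the microRNA gene Mir9-1, 64.7, 31.8 and 103 FPKM. A8 was lowest for Cdr1 and highest for Gm3764.

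Ccnb1ip1 stood 83rd among nuclear protein-coding genes at 144 ± 33.8 FPKM; its exons overlap Rpph1, the RNA component of ribonuclease P, at 850.4 FPKM, and reads in the overlap cannot be told apart.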
